A study of Mus musculus with 3 samples.

Results

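The type I interferon response genes are the genes that cells switch on when interferon alpha or beta reaches their receptor. The set described here was chosen by name. It held 39 names, and 37 of them matched 1 row each among the 32285 genes of the count tables. Mx1 and Mx2 were not analysed here. The genes were measured in mouse splenocytes by 5′ single-cell RNA sequencing on the 10x Genomics platform, after CD3 microbeads had been used to remove T cells. There were 3 libraries, and each pooled the cells of 2 conditions with 3 mice each, aged 12 to 14 weeks. The C57_control library held C57BL/6 mice, males with sham pumps and females. The C57_AngII library held C57BL/6 mice given angiotensin II (Ang II) by minipump, with placebo or with 2-hydroxybenzylamine (2-HOBA), which scavenges isolevuglandins, a product of lipid peroxidation. The SLE123 library held B6.SLE123 mice, C57BL/6 congenics that carry the lupus susceptibility intervals Sle1, Sle2 and Sle3, given placebo or 2-HOBA, and female per the study's methods. All of these mice had a C57BL/6 background, and all spleens were depleted of T cells.

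Cells in each library carried 1 of 6 antibody hashtags, C0301 to C0306. The labels do not say which hashtag marked which condition or whether a hashtag marked a single mouse. Hashtag populations are therefore given singly, and the values of a library mix both of its conditions. Only in C57_control did sex-linked transcripts tell the conditions apart, as given below. Since each group was a single library, groups could not be tested against each other, and no p-value is given. Differences are given as the log2 of the ratio of CPM (the unique molecular identifiers or UMIs of a gene, scaled to a fixed total of UMIs of all genes in the same cells) with an exact 95% interval that covers counting error only. A gene was compared where both libraries together held at least 50 UMIs, and 2-fold was taken as the size worth counting.

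Interferon alpha and beta bind the receptor of Ifnar1 and Ifnar2. The kinases Jak1 and Tyk2 then phosphorylate Stat2, which acts with Irf9 at a DNA element with repeated GAAA blocks, the interferon-stimulated response element, in front of the response genes. Many products block viruses: they bind or cut viral RNA, hold budding virions at the membrane or limit nucleotides. Others sense nucleic acids or damp the response itself. A raised level of such genes in blood and spleen cells is a known feature of systemic lupus erythematosus.

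After filtering, 15700 cells of C57_control, 14017 of C57_AngII and 16702 of SLE123 remained, with a median of 1759, 2724 and 1888 UMIs per cell. Between 11.4% and 18.0% of barcodes in a library carried several hashtags and were removed. Pairs of libraries shared 415 to 496 cell barcodes. Cells were sorted into classes by marker genes, and 12755, 11337 and 12258 cells were B cell-like. The defining T cell markers were near 0 in them, at 1.37 to 3.83 summed CPM against 7670 to 8812 for the B cell markers. T cell-like cells numbered 16 in C57_control, 289 in C57_AngII and 15 in SLE123. Of the 289, 275 carried hashtag C0303, where they made up 12.2% of cells. Plasma cell markers stood at 569.5, 512.7 and 987.1 summed CPM in B cell-like cells of C57_control, C57_AngII and SLE123, and neutrophil markers at 71.2, 192.9 and 145.5 CPM. Their part in the results was not tested. The female-specific transcript Xist was found in 49.2% to 51.7% of cells of hashtags C0304 to C0306 of C57_control, and in 0.17% to 0.39% of cells of its hashtags C0301 to C0303. In SLE123 it was found in 46.6% to 54.9% of cells of each hashtag and in C57_AngII in 0%. Y-linked transcripts were found in 34.5% to 36.5% of cells of each C57_AngII hashtag and in 0% of SLE123 cells. In C57_control they were found in 23.5% to 25.5% of cells of C0301 to C0303 and in 0.17% to 0.31% of C0304 to C0306. By these transcripts and the library label, C0304 to C0306 of C57_control were the females and C0301 to C0303 the males with sham pumps. Treatment or strain and sex therefore cannot be told apart fully in the comparisons with C57_control.

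The response element can be read in front of several of the genes below. A RefSeq promoter window on GRCm38.p6, from 250 bases before the start to 50 after, was at hand for 30 of the 37 genes. The motif searched was GAAA, any 2 bases and GAAA again, on both strands and with overlaps allowed. It stood in the 250 bases before the start of 13 of these 30 genes, or 43.3%, against 936 of 27025 genes in all, or 3.46%. A match describes letters only. Stretches are shown only for genes with a match, and not for all of these. They are written 5′ to 3′ on the gene's strand with the matches in capitals. Ifi44, Oasl1, Ddx58 and Cmpk2, whose values are also described below, had a window without a match. Ifi27l2a had no window, and Stat2 had a match that is not shown. A match on the opposite strand reads as a pair of TTTC blocks.
Isg15, chr4:156200845-156200926, minus strand: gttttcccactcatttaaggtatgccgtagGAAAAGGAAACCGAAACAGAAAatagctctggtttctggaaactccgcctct
Ifit3, chr19:34583343-34583446, plus strand: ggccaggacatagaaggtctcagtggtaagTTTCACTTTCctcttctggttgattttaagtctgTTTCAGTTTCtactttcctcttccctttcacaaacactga
Ifit3b, chr19:34607739-34607842, plus strand: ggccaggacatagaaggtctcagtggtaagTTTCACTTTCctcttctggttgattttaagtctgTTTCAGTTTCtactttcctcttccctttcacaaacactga
Rsad2, chr12:26456533-26456602, minus strand: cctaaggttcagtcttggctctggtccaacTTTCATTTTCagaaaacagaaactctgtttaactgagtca
Oas1a, chr5:120907526-120907575, minus strand: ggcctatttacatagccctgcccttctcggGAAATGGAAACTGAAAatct
Bst2, chr8:71537557-71537632, minus strand: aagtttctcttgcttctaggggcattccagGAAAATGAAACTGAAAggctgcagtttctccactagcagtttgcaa
Phf11b, chr14:59341341-59341410, minus strand: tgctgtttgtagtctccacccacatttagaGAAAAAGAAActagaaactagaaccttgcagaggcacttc
Slfn8, chr11:83020819-83020888, minus strand: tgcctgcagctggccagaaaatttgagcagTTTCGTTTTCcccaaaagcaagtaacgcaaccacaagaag
The Isg15 stretch holds 3 overlapping matches, the nearest 66 bases before the start, and the Oas1a stretch has its nearest match 14 bases before the start. The Ifit3 and Ifit3b stretches are identical. The genes themselves are also alike: 35.1% of the 90-base words of Ifit3 transcripts occur in another gene, mostly Ifit3b, and 30.5% of those of Ifit3b, so reads may have been split between them. The same holds for Oas1a (43.4%, mostly Oas1g), Phf11b (18.3%, mostly Phf11c) and Trex1 (91.9%, mostly Atrip), whose values are uncertain for this reason.

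In B cell-like cells of SLE123 the set did not move as a block. Bst2, Phf11b, Oas1a, Oas2, Usp18, Zbp1 and Isg15 were higher than in C57_control by 0.47 to 0.88 on the log2 scale, while Slfn8, Stat2, Ddx58, Oasl2 and Cmpk2 were lower. The summed level of the 37 genes was 2065 CPM in C57_control and 2253 CPM in SLE123, a log2 ratio of 0.13 (0.11 to 0.14). Over hashtag populations the sum ran from 1843 to 2497 CPM in C57_control and from 1906 to 2809 CPM in SLE123, so that the libraries overlapped. Of the gain, 151 CPM came from Ifi27l2a alone, which gave 29.6% of the summed UMIs in C57_control and 33.9% in SLE123. Without it the sums were 1452 and 1490 CPM, a log2 ratio of 0.04 (0.02 to 0.06). In the difference of the sums, 20 genes gave 313.9 CPM and 17 genes together gave −125.7 CPM.

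Of the 36 genes compared, 1 was at least 2-fold higher in SLE123 (Ifi44), against 5.23% of the 11309 genes compared, and 0 were at least 2-fold lower, against 1.7% of all genes. In 2 genes, Bst2 and Phf11b, all 6 SLE123 hashtag populations stood above all 6 of C57_control, a pattern that 9.79% of all genes showed. In 3 genes, Stat2, Ddx58 and Slfn8, all 6 stood below, as in 10.6% of all genes. The median log2 ratio was 0.04 over the 36 genes and −0.04 over all genes. These counts were near or below those of the background.

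**Figure D1:**
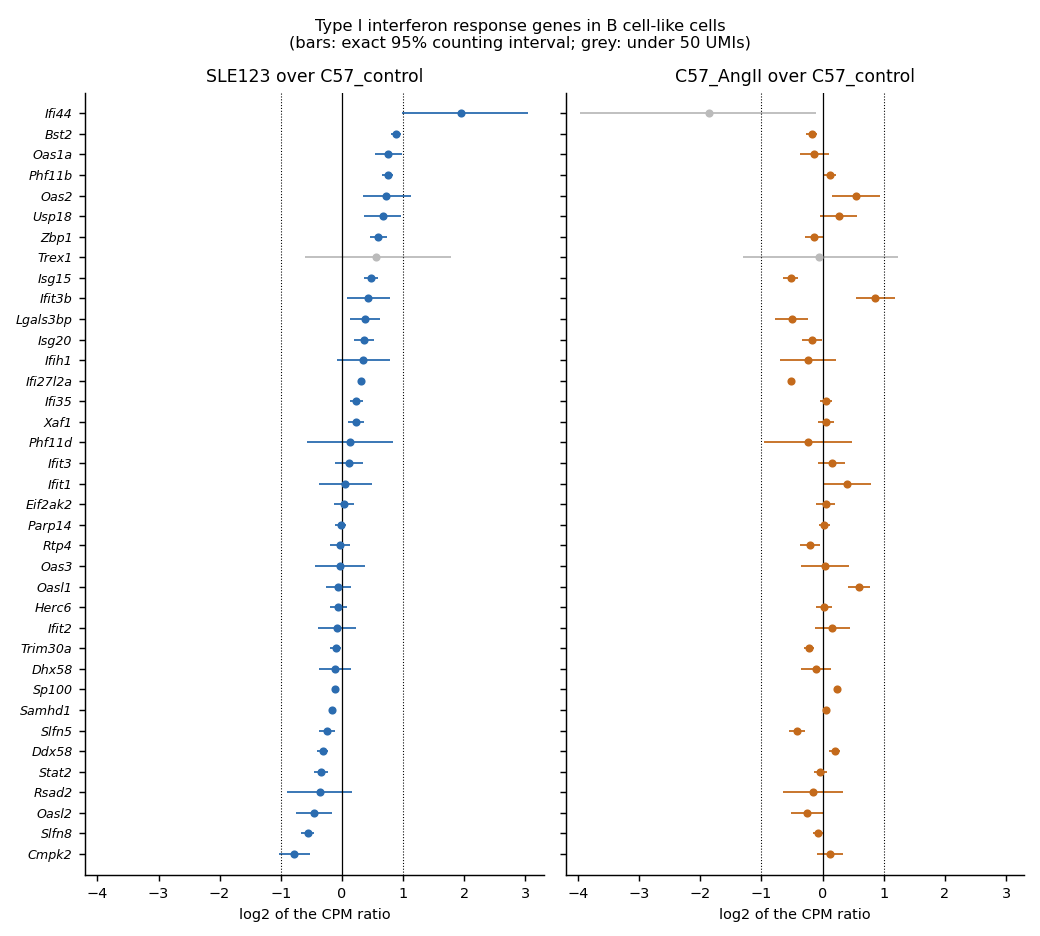
Log2 ratio of CPM (x axis) of each of the 37 genes (rows) in B cell-like cells, SLE123 over C57_control on the left and C57_AngII over C57_control on the right. Points are library values, bars exact 95% counting intervals, dotted lines 2-fold and grey points genes with under 50 UMIs. Ifi44 and Bst2 top the left panel at 1.94 and 0.88 and Cmpk2 stands lowest at −0.78, while Ifit3b stands highest on the right at 0.86.

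Among the genes that act on virus entry, budding and replication, Bst2 (tetherin, which holds budding virions at the cell surface) had a level of 62.5 CPM in the lowest, 69.5 in the median and 84.8 in the highest hashtag population of C57_control. In SLE123 the same values were 105.3, 131 and 148 CPM, and the libraries did not overlap. The log2 ratio was 0.88 (0.80 to 0.96), the largest in the set among genes with over 100 UMIs in each library. Rsad2 (viperin, which makes a chain-terminating nucleotide) had 66 and 57 UMIs, with a log2 ratio of −0.36 (−0.90 to 0.17). Its neighbour Cmpk2, a mitochondrial nucleotide kinase that lies next to it on chromosome 12, was lower in SLE123, at 12.1 CPM in C57_control and 7.05 in SLE123. Its hashtag populations ran from 8.77 to 16.2 and from 5.18 to 11.5 CPM, and 5 of the 6 in SLE123 were under the lowest of C57_control. The log2 ratio was −0.78 (−1.04 to −0.53).

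Isg15 encodes a ubiquitin-like protein that is joined to many targets. Its level in C57_control was 32.1, 31.4 and 27.9 CPM in hashtags C0301 to C0303 and 50.1, 58.0 and 56.3 CPM in C0304 to C0306, so the 3 populations with Xist transcripts were the 3 highest. In SLE123 the lowest, median and highest were 38.01, 56.8 and 85.4 CPM, with 3 of 6 above every control population. The log2 ratio of 0.47 (0.37 to 0.58) became −0.06 (−0.20 to 0.09) when SLE123 was set against only the 3294 control cells with an Xist UMI. Lgals3bp, a secreted glycoprotein, had the same order in C57_control: 4.64, 5.05 and 4.48 CPM in C0301 to C0303 against 9.46, 14.7 and 13.3 CPM in C0304 to C0306. So had Ifit3, at 6.99 to 8.26 against 12.4 to 15.2 CPM. The Lgals3bp ratio of 0.37 (0.12 to 0.62) became −0.44 (−0.74 to −0.13) against the control cells with Xist, and those of Ifit3 and Ifit3b became −0.43 and −0.47. The control cells with an Xist UMI were deeper, with a median of 2086 UMIs against 1716 in the other control B cell-like cells. Set beside the whole populations C0304 to C0306 of C57_control, SLE123 stood at 59.4 CPM of Isg15, 11.2 of Lgals3bp and 11.3 of Ifit3. What part sex had in the difference was not tested. Usp18, which removes Isg15 from proteins and damps receptor signalling, ran from 3.10 to 7.14 CPM in C57_control and from 5.59 to 11.4 in SLE123, with a log2 ratio of 0.66 (0.37 to 0.97). Herc6, the ligase that joins Isg15 to targets in mice, had a ratio of −0.06 (−0.20 to 0.08).

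The OAS proteins sense double-stranded RNA and make oligoadenylates that switch on RNase L. Oas1a had a lowest, median and highest level of 5.57, 10.1 and 14.3 CPM in C57_control and 10.2, 16.4 and 28.2 CPM in SLE123, with 4 of 6 populations above every control. Its log2 ratio was 0.76 (0.55 to 0.98) and that of Oas2 was 0.73 (0.34 to 1.12). Both were higher in SLE123, whereas Oasl2 was lower, at −0.45 (−0.75 to −0.16). Oasl1, which restrains the translation of Irf7, and Oas3 gave −0.06 (−0.27 to 0.15) and −0.04 (−0.45 to 0.38), the latter turning to a positive sign under both other scalings. The 4 IFIT genes, whose products bind viral RNA, summed to 24.3 CPM in C57_control and 26.4 in SLE123, a log2 ratio of 0.12 (−0.03 to 0.27). In C57_control their sum was 16.9, 16.3 and 21.4 CPM in hashtags C0301 to C0303 and 29.3, 31.2 and 33.5 CPM in C0304 to C0306, so the populations with Xist were again the 3 highest. Against only control cells with Xist the ratio turned to −0.36 (−0.56 to −0.16) for the IFIT genes, and it was −0.049 (−0.21 to 0.12) in place of 0.22 for the OAS genes, with Oas1a at 0.44. For the ubiquitin-like genes and their regulators it was −0.089 (−0.20 to 0.022) in place of 0.31. The latter genes summed to 89.8, 98.2 and 94.3 CPM in C0304 to C0306 of C57_control and to 96.8 CPM in SLE123. Without hashtag C0304 of SLE123 the IFIT ratio was −0.066.

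Among the sensors, Zbp1, which binds left-handed nucleic acid, had levels of 20.2, 26.7 and 33.1 CPM (lowest, median and highest) in C57_control and 28.6, 40.6 and 56.25 in SLE123, a log2 ratio of 0.60 (0.46 to 0.73). Ddx58 (RIG-I, a sensor of viral RNA) went the other way, from 62.9, 69.1 and 72.3 CPM to 45.0, 58.0 and 62.2 CPM. Its log2 ratio was −0.32 (−0.41 to −0.22) and the libraries did not overlap. The related Ifih1 (MDA5) and Dhx58 (LGP2) gave 0.35 (−0.09 to 0.78) and −0.12 (−0.38 to 0.14), and the RNA-dependent kinase Eif2ak2 gave 0.03 (−0.13 to 0.19). Summed over these 5 genes the level was 129 CPM in C57_control and 129.5 in SLE123.

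Stat2, the transcription factor that carries the signal of the receptor, was lower in SLE123, with populations from 35.9 to 44.4 CPM against 46.2 to 58.9 CPM in C57_control and a log2 ratio of −0.34 (−0.45 to −0.23). Slfn8, a Schlafen family gene, had levels of 54.7, 63.9 and 70.6 CPM in C57_control and 31.8, 44.3 and 48.3 CPM in SLE123. No population overlapped, and the log2 ratio was −0.56 (−0.67 to −0.46). Its relative Slfn5 gave −0.24 (−0.37 to −0.11), with overlap. Phf11b, a PHD finger gene, was higher in SLE123, with levels of 39.5, 51.2 and 57.3 CPM in C57_control and 57.7, 80.8 and 113 CPM in SLE123 and a log2 ratio of 0.75 (0.65 to 0.84). The lowest SLE123 population and the highest control population lay within 1 CPM of each other.

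Ifi44 was the only gene past 2-fold, and rested on 11 UMIs in C57_control and 47 in SLE123. Its log2 ratio was 1.94 (0.98 to 3.04), and populations overlapped at 0 to 1.19 and 0.37 to 3.84 CPM. Without hashtag C0303 of SLE123 the ratio was 1.42 and with a stricter cell gate 2.03, and in both cases fewer than 50 UMIs were left, so that no gene was counted. Samhd1, which breaks down deoxynucleotides, and Sp100, a nuclear body protein, gave −0.16 (−0.21 to −0.12) and −0.12 (−0.16 to −0.08), and their populations also overlapped. The remaining genes were Isg20, Ifi35, Xaf1, Trim30a, Parp14, Rtp4, Phf11d and Trex1. Of these, Isg20 (0.36), Ifi35 (0.24) and Xaf1 (0.23) had intervals above 0 and Trim30a (−0.10) had one below 0, while those of the other 4 held 0. Trex1 had 11 and 18 UMIs and was not compared. The Sle1, Sle2 and Sle3 intervals lie on chromosomes 1, 4 and 7, and 5 of the genes are on these chromosomes: Sp100 on 1, Ddx58 and Isg15 on 4, and Isg20 and Trim30a on 7. Whether any of them lies inside an interval was not tested.

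**Figure D2:**
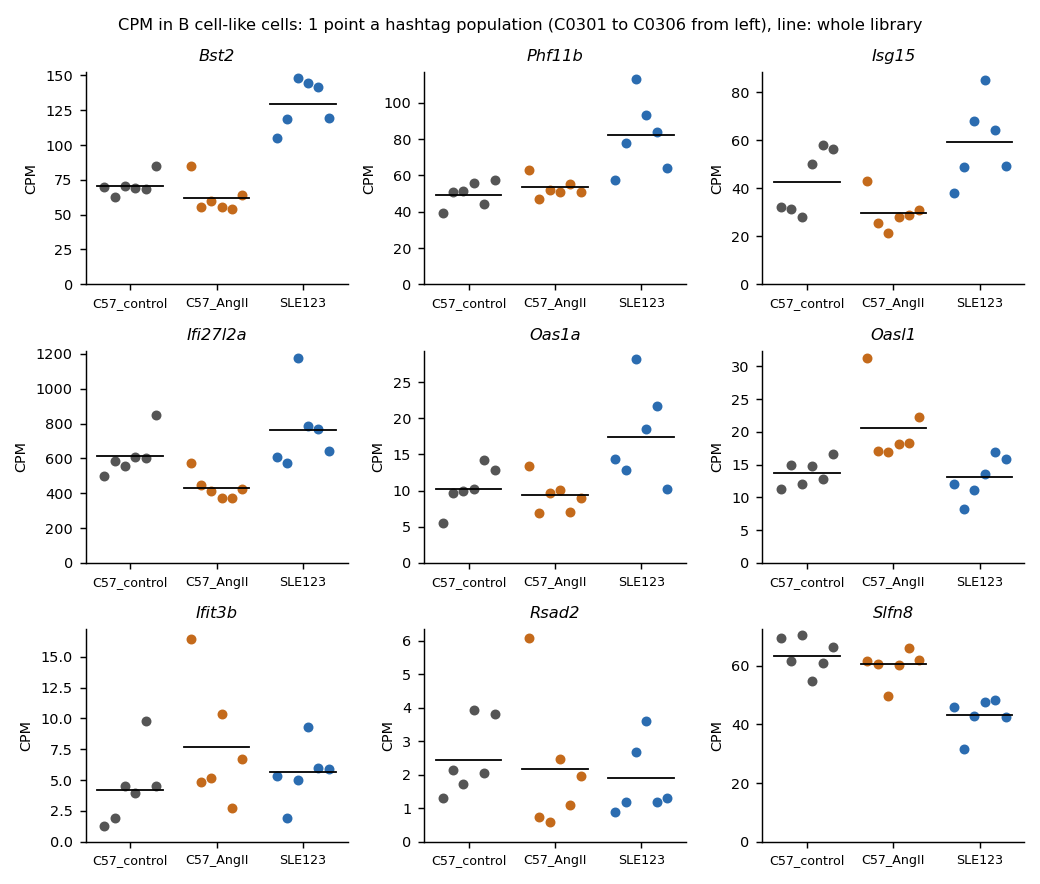
CPM (y axis, from 0) of 9 genes in B cell-like cells, with 1 point per hashtag population in the order C0301 to C0306 and a line at the library value. Bst2 and Phf11b of SLE123 stand above all control points and Slfn8 below them, Isg15 of C57_control falls into 3 lower and 3 higher points, and hashtag C0301 of C57_AngII is highest in its library for all but Slfn8.

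Among B cell-like cells of C57_AngII, Ifit3b, Oasl1 and Oas2 were higher than in C57_control, while Ifi27l2a, the gene with most UMIs in the set, Isg15, Lgals3bp and Slfn5 were lower. Ifi27l2a, which encodes a small membrane protein, had levels of 497.8, 596 and 846.6 CPM (lowest, median and highest) in C57_control and 372.9, 417 and 572.7 CPM in C57_AngII. Of the Ang II populations 5 of 6 were under the lowest control, and the log2 ratio was −0.52 (−0.55 to −0.49). Oasl1 was higher in every Ang II population, at 16.9, 18.2 and 31.25 CPM against 11.3, 13.8 and 16.6 CPM, with a log2 ratio of 0.60 (0.41 to 0.78). Ifit3b gave 0.86 (0.54 to 1.19) and Oas2 0.54 (0.15 to 0.93), with overlapping populations, and the interval of Ifit1 (0.39) reached 0. Summed over families, the IFIT genes gave 0.33 (0.19 to 0.47) and the OAS genes 0.22, although Oas1a (−0.14) and Oasl2 (−0.25) were on the lower side with intervals that held 0. Against only control cells with a Y-linked UMI these ratios were 0.95 (0.59 to 1.33) and 0.57 (0.31 to 0.85). Without hashtag C0301 of C57_AngII, against all control cells, they were 0.10 (−0.05 to 0.26) and 0.084 (−0.04 to 0.20). In the control populations with Y-linked transcripts, C0301 to C0303, the IFIT genes summed to 16.9, 16.3 and 21.4 CPM, against 30.6 CPM in C57_AngII. The OAS genes summed to 26.9, 37.1 and 33.4 CPM there, against 45.0 CPM in C57_AngII.

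The summed level was 2065 CPM in C57_control and 1927 CPM in C57_AngII, a log2 ratio of −0.10 (−0.12 to −0.08), with populations from 1749 to 2214 CPM. Without Ifi27l2a the ratio was 0.05 (0.03 to 0.06) by CPM and −0.01 with TMM scaling. Of 35 genes compared, 0 were at least 2-fold higher and 0 at least 2-fold lower, against 1.04% and 0.584% of the 11311 genes compared. For 1 gene, Oasl1, all 6 populations stood above those of C57_control (8.04% of all genes), and for 0 genes all 6 stood below (4.89% of all genes). The medians were 0.02 over the 35 genes and 0.06 over all genes.

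Isg15 gave −0.52 (−0.64 to −0.40) and Lgals3bp −0.50 (−0.77 to −0.23) for C57_AngII. Both, like Ifit3, had their 3 highest control populations among those with Xist. Against only the 1671 control cells with a Y-linked UMI the ratio of Isg15 was −0.29 (−0.53 to −0.03), that of Lgals3bp 0.40 (−0.28 to 1.16), that of Ifit3 1.10 (0.48 to 1.79), that of Ifi27l2a −0.39 (−0.45 to −0.33) and that of Oasl1 0.85 (0.42 to 1.30). Slfn5 was lower at −0.42 (−0.55 to −0.29), and Trim30a and Bst2 gave −0.22 (−0.31 to −0.14) and −0.18 (−0.27 to −0.09). Sp100 gave 0.24 (0.20 to 0.28) and Ddx58 0.20 (0.11 to 0.28), each with 5 of 6 Ang II populations above every control population. Both contrasts share the control library, so a gene that stood apart in C57_control would show in both.

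One Ang II population carried much of the IFIT signal. Hashtag C0301 of C57_AngII was the highest of the 6 for 24 of 34 members with enough UMIs, while it was the highest for 12.7% of all genes. Ifit3b stood at 16.5 CPM there and at 2.76 to 10.4 CPM in the other 5, Ifit3 at 19.96 against 6.85 to 12.6 CPM, and Rsad2 at 6.075 against 0.57 to 2.48 CPM. Without this population the ratio of Ifit3b to C57_control was 0.50 in place of 0.86, that of Rsad2 −0.77 in place of −0.16 and that of Oasl1 0.45 in place of 0.60. The same hashtag was highest for 16 of 21 members in monocyte-like cells (14.1% of all genes) and for 5 of 12 in NK cell-like cells (14.6%). The median depth of its B cell-like cells was 2833 UMIs, within the 2717 to 2833 of the other Ang II populations.

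Uneven populations were also seen in the other libraries. In SLE123, hashtag C0304 was highest for 17 of 34 members (14.45% of all genes) and C0303 for 12 (16.65%), with Ifi27l2a at 1179 CPM in C0303 against 576.1 to 786.8 CPM in the others. In C57_control, C0306 was highest for 18 of 34 members (15.7%). Whether these populations differ in treatment, animal or sample handling cannot be told apart.

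In B cell-like cells most UMIs of Ifit1, Ifit3 and Ifit3b, but not of Ifit2 in every library, came from few cells. Each cell was thinned to 1000 UMIs, which left out 742 cells of C57_control, 516 of C57_AngII and 1041 of SLE123 as too shallow. Cells were then ranked by the UMIs of the other members, without Ifi27l2a, Sp100 and Samhd1, the genes over 200 CPM in control B cell-like cells. The top 5% of cells held 70.5%, 84.6% and 80.7% of the Ifit3b UMIs in C57_control, C57_AngII and SLE123. For Ifit3 the shares were 68.2%, 75.8% and 58.5%, for Rsad2 64.3%, 76.9% and 70.8%, and for Ifit1 67.5%, 59.0% and 67.4%. These shares rested on few thinned UMIs, 28, 26 and 24 for Rsad2 and 40, 39 and 43 for Ifit1. Across all other genes the median share was 5%, 5.04% and 4.90%. Ifit3 and Ifit3b have transcript stretches in common, and what this did to their shares was not tested.

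Usp18 (38.9% to 56.98%), Ifit2 (30.9% to 52.0%), Oas3 (32.6% to 48.8%) and Isg15 (28.3% to 35.2%) also had high shares. The lowest shares were those of Samhd1 (7.14% to 8.10%), Sp100 (8.70% to 9.24%), Ifi35 (9.04% to 11.2%), Stat2 (9.44% to 12.5%), Ddx58 (10.4% to 13%) and Ifi27l2a (11.9% to 15.2%). All of these were above the median of other genes, and all but Samhd1 were above their 95th percentile (7.82% to 8%) in every library. Of the 6 genes with a promoter window and over 30% of UMIs in the top cells of every library, 5 held the GAAA motif before the start, and of the other 21 genes, 8 did.

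**Figure D3:**
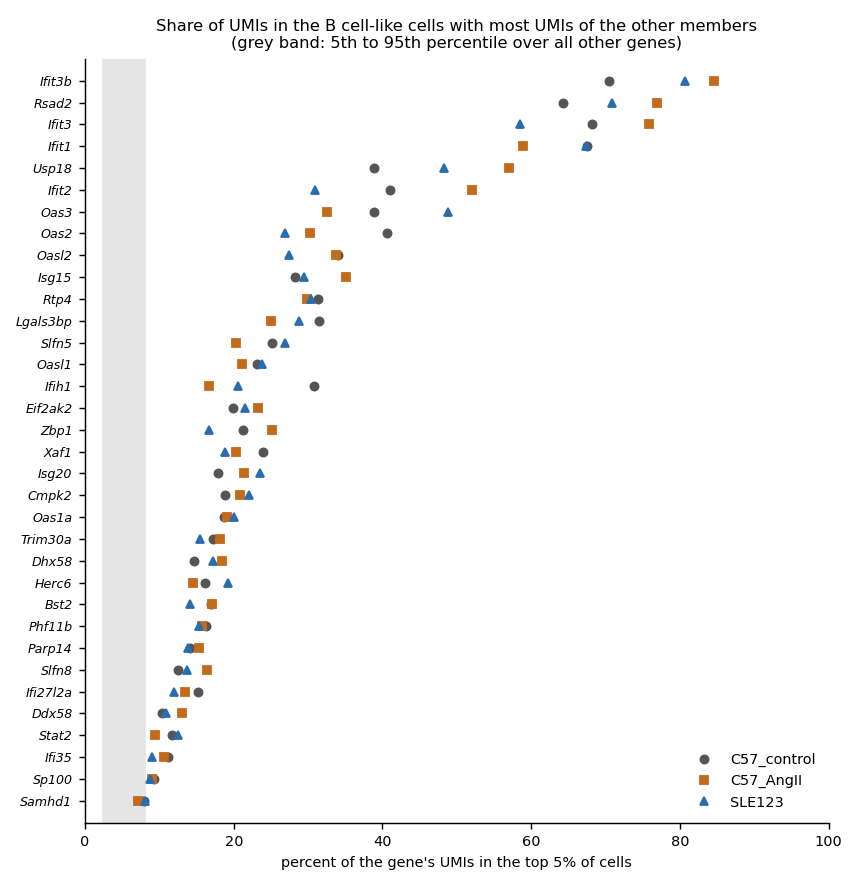
Percent of a gene's UMIs (x axis) that lay in the 5% of thinned B cell-like cells with most UMIs of the other members, for genes (rows) with at least 20 thinned UMIs, by library. The UMIs of Ifi27l2a, Sp100 and Samhd1 were left out of the ranking. The grey band is the 5th to 95th percentile over all other genes. Ifit3b, Rsad2, Ifit3 and Ifit1 stand above 58% in every library and Samhd1 stays inside or at the edge of the band.

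Such cells were rare in every library. Leaving out the 3 genes over 200 CPM (Ifi27l2a, Sp100 and Samhd1), 1.82% of B cell-like cells of C57_control held 5 or more of 1000 UMIs from the other 34 genes (exact 95% interval 1.59% to 2.08%), with 1.65% (1.41% to 1.90%) in C57_AngII and 2.17% (1.91% to 2.45%) in SLE123. In C57_control the share ran from 1.21% to 1.83% in hashtags C0301 to C0303 and from 1.58% to 2.75% in C0304 to C0306, the populations with Xist. Over hashtags it ran from 1.28% to 2.41% in C57_AngII and from 1.1% to 3.06% in SLE123, so the libraries overlapped. Cells with 10 or more were 41 of 12013, 38 of 10821 and 48 of 11217. Within C57_AngII, 14 of the 38 carried hashtag C0301 and 0 of 1298 cells of C0302 reached 10, which allows a share of up to 0.231%. Within SLE123, 22 of the 48 carried hashtag C0304.

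The rest of the pathway was read from a list of 41 ligands, receptors, signal carriers, sensors, inhibitors and interferon gamma genes. In SLE123, of the 31 genes with 50 UMIs, 1 had all hashtag populations above C57_control (Socs1) and 2 had all below (Irf3 and Tmem173), and in C57_AngII 4 of 31 had all above and 1 all below. Over all genes these shares were 9.79% and 10.6% in SLE123 and 8.04% and 4.89% in C57_AngII. For the ligands Ifnb1, Ifna1, Ifna2, Ifna4, Ifna5, Ifna9 and Ifne, 0 UMIs were counted in B cell-like cells of any library. The receptor gene Ifnar1 was lower in SLE123 (log2 ratio −0.41, −0.53 to −0.29) and Ifnar2 stood at 47.7 CPM in both, and Jak1 gave −0.26 (−0.31 to −0.21). The hashtag populations of Ifnar1 and of Jak1 overlapped those of C57_control. Irf9 gave −0.06 (−0.15 to 0.04).

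Among the inhibitors, Socs1, which blocks the kinases of interferon receptors, ran from 7.24 to 20 CPM in C57_control and from 24.6 to 54.8 CPM in SLE123. The log2 ratio was 1.53 (1.36 to 1.70), and every SLE123 population was above every control one. Socs3 gave 2.00 (1.71 to 2.29), with overlap. Tmem173 (STING, the adaptor of the DNA sensor cGAS) was lower in every SLE123 population, with a log2 ratio of −0.52 (−0.63 to −0.42). Irf3, which STING activates, was lower than every control population in both libraries, at −0.33 (−0.43 to −0.24) in SLE123 and −0.22 in C57_AngII. In C57_AngII the populations of Irf5 (0.48), Mavs (0.72), Unc93b1 (0.26) and Ifngr2 (0.28) all stood above those of C57_control, and Irf7 gave 0.36.

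The summed level varied more between cell classes than between libraries. In C57_control it was 981 CPM in plasma cell-like, 1388 in NK cell-like, 1722 in cDC-like, 2065 in B cell-like, 2782 in neutrophil-like and 5455 in monocyte-like cells. In pDC-like cells Bst2, a known marker of plasmacytoid dendritic cells, alone reached 5900 CPM. These counts are not divided by transcript length, so they compare classes and not genes. The other classes described here held 10 to 670 cells in a library, and their intervals were wider.

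**Figure D4:**
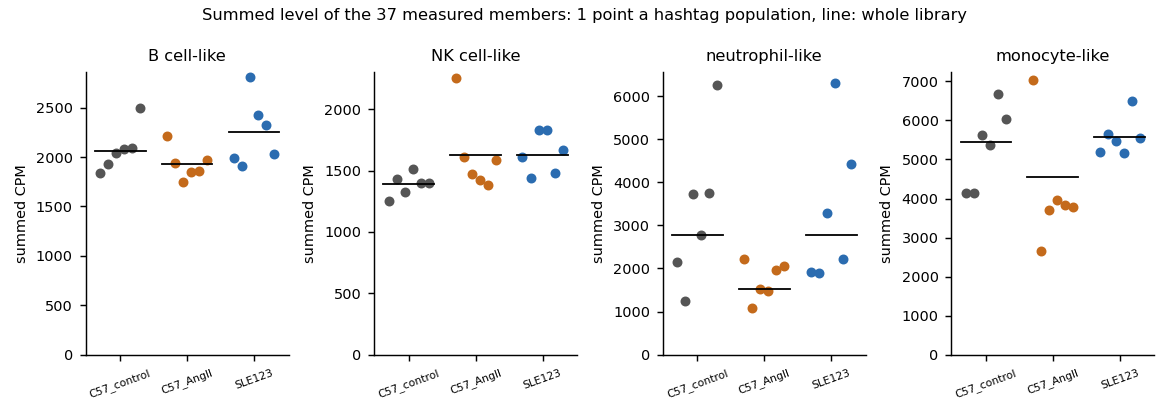
Summed CPM of the 37 genes (y axis, from 0) in 4 cell classes, with 1 point per hashtag population in the order C0301 to C0306 and a line at the library value. In C57_AngII hashtag C0301 stands apart in NK cell-like (2253 CPM) and monocyte-like (7024 CPM) cells, and the neutrophil-like populations of C57_AngII (1078 to 2224 CPM) overlap the control populations (1254 to 6249 CPM) at their lower end.

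In neutrophil-like cells of C57_AngII 25 of the 27 genes compared had a ratio below 0, while 43.6% of all genes compared had one above 0. The summed level was 1526 against 2782 CPM, a log2 ratio of −0.87 (−0.93 to −0.80), and 7 genes were at least 2-fold lower against 2.45% of the 5147 genes compared, and 0 were at least 2-fold higher against 1.79%. The median log2 ratio was −0.58 over the 27 genes and −0.07 over all genes. They were Ifi27l2a (−1.74, −1.89 to −1.58), Slfn5 (−1.70), Zbp1 (−1.33), Oasl2 (−1.29), Rtp4 (−1.13), Trim30a (−1.12) and Isg15 (−1.01). The populations overlapped: Ifi27l2a ran from 98.04 to 385.5 CPM in C57_AngII, with a median of 244, and from 251.6 to 2145 CPM in C57_control, with a median of 696. Trim30a ran from 46.9 to 98.7 and from 63.5 to 248 CPM. Leaving out any 1 hashtag kept Ifi27l2a (−2.17 to −1.30) and Slfn5 (−2.18 to −1.25) past 2-fold. The study's methods word the cell limits as RNA counts. With these limits read as UMIs the 2 genes gave −0.99 and −0.86, and none of the 7 was past 2-fold. Without C0305 of C57_control the other 5 were not, at −0.92 for Trim30a to −0.32 for Zbp1. Without C0302 of C57_AngII, Isg15 (−0.57), Rtp4 (−0.74) and Trim30a (−0.99) were not. Without C0306 of C57_control Isg15 (−0.90) and Rtp4 (−0.93) were not, and Isg15 was also short of it without C0304 of C57_control (−0.95) or C0304 of C57_AngII (−0.99).

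Genes of immature neutrophils also differed between these libraries. The granule gene Ngp stood at 44580 CPM in C57_AngII and 26260 CPM in C57_control, and Ltf at 10970 and 5979 CPM, while Cxcr2, a receptor of mature neutrophils, stood at 497.8 and 831.8 CPM. In SLE123 Ngp stood at 43500 CPM, Cxcr2 at 443.8 CPM and the summed level at 2788 CPM. The neutrophil marker Retnlg stood at 9382 CPM in C57_control, 7073 CPM in C57_AngII and 9271 CPM in SLE123. Mmp9, another such marker, stood at 1116, 961.1 and 832.6 CPM. Within C57_control the hashtag with most Ngp, C0302 (37510 CPM), had the lowest summed level (1254 CPM), and the one with least, C0306 (10820 CPM), had the highest (6249 CPM). Within C57_AngII the highest sum (2224 CPM) was that of C0301, with Ngp at 43790 CPM. The hashtags with least Ngp there, C0305 (28890 CPM) and C0306 (35020 CPM), had sums of 1960 and 2047 CPM. In SLE123 hashtag C0304 had 3150 CPM of Ngp and a summed level of 6300 CPM from 21 cells. The part of cell maturity in the difference was not tested. Only 29 of the 632 control neutrophil-like cells had a Y-linked UMI, with a median depth of 2797 UMIs against 1128 in the others, and against them the sign turned to 1.32 (1.02 to 1.63). These few deeper cells do not stand for their populations. The control populations with Y-linked transcripts, C0301 to C0303, had summed levels of 2143, 1254 and 3723 CPM, against 1526 CPM in C57_AngII.

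In neutrophil-like cells of SLE123 the summed level was 2788 CPM and the ratio 0.00 (−0.06 to 0.07). Of 29 genes, 2 were at least 2-fold higher against 4.18% of all genes, and 0 were lower against 6.39%. Oas1a gave 1.56 (0.98 to 2.17) with populations from 37.7 to 147.6 CPM against 0 to 49.6 CPM, and 0.99 without C0303 of SLE123, and Bst2 1.53 (0.56 to 2.62) on 47 and 11 UMIs.

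Isg15 and Bst2 were higher in several smaller classes of SLE123. In plasma cell-like cells, of which C57_control had 22 and SLE123 296, the summed level was 981 and 1554 CPM, a ratio of 0.66 (0.46 to 0.87). It was 1.44 with the cell limits read as UMIs and 0.29 with a stricter gate. There 4 of 13 genes were at least 2-fold higher against 11.5% of all genes: Zbp1 (2.31), Lgals3bp (1.65), Bst2 (1.59) and Isg15 (1.28). Of these, Bst2 rested on 22 control UMIs and the other 3 on 2 to 5. Isg15 gave 0.99 without C0305 of SLE123 and 0.014 with the stricter gate. None of the 13 was 2-fold lower (3.85% of all genes), and in C57_AngII 0 of 4 were past 2-fold, against 6.03% of genes higher and 8.35% lower. In cDC-like cells 2 of 11 genes were past 2-fold against 2.23% of all genes, Isg15 at 1.20 (0.48 to 1.98) and Ifi27l2a at 1.19 (0.87 to 1.53), and Bst2 gave 0.91 (0.58 to 1.25). There 0 were 2-fold lower (1.83%), and in C57_AngII 0 of 10 were past 2-fold (1.76% of genes higher, 1.35% lower). Without hashtag C0303 of SLE123, where Ifi27l2a stood at 841.6 CPM against 203.8 to 410.8 CPM in the others, its cDC-like ratio was 0.57 (0.19 to 0.96), and it was 0.97 without C0306 of C57_control and 0.96 with the stricter gate. That of Isg15 was 0.84 without C0302 of SLE123, 0.99 without C0303 of SLE123 and 0.99 without C0301 of C57_control, and 0.32 against only control cells with Xist. Family sums, shown after their values were seen, were also higher in cDC-like cells. On 9 control UMIs the OAS genes gave 2.16 (1.14 to 3.36) in SLE123 and 1.40 (0.31 to 2.64) in C57_AngII. On 6 control UMIs the IFIT genes gave 1.11 (−0.27 to 2.72) and 2.28 (1.04 to 3.80). In C57_AngII they stood at 216.3 CPM in C0304 and at 0 to 29.5 CPM in the others. In NK cell-like cells Isg15 was the 1 of 15 past 2-fold against 1.22% of all genes, at 1.03 (0.32 to 1.76), and Bst2 gave 0.85 (0.31 to 1.39). There 0 were 2-fold lower (0.387%), and in C57_AngII 0 of 16 were past 2-fold (1.27% higher, 0.344% lower). The NK cell-like Isg15 ratio was under 2-fold, at 0.91 to 0.99, without C0303, C0305 or C0306 of C57_control or without C0304 or C0306 of SLE123, and 0.70 with the stricter gate. Of the NK cell-like family sums in SLE123, OAS gave 1.51 (0.73 to 2.35) and IFIT 1.24 (0.43 to 2.10), each on 20 control UMIs. The ubiquitin-like genes and their regulators gave 1.14 (0.67 to 1.62) on 60 control UMIs. In red pulp macrophage-like cells Bst2 gave 1.52 (0.31 to 3.02) on 6 and 59 UMIs, 1 of 2 genes compared against 10.3% of all genes, with 0 lower (3.78%), and in C57_AngII 0 of 1 was past 2-fold (1.75% higher, 0.437% lower). In pDC-like cells the Bst2 ratio was −0.06 (−0.24 to 0.11), and 0 of 3 genes were past 2-fold (0.772% of genes higher, 1.93% lower). Among basophil or mast cell-like cells 0 genes of the set held 50 UMIs, while 7.02% of the genes compared were 2-fold higher in SLE123 and 5.85% lower.

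Monocyte-like cells had 0 of 33 genes past 2-fold in SLE123, against 3.33% of genes higher and 0.825% lower, and 0 of 32 in C57_AngII, against 0.825% and 0.58%. Slfn5 and Slfn8 were lower in SLE123, at −0.96 (−1.19 to −0.73) and −0.82 (−1.24 to −0.41), as was Slfn8 in B cell-like cells. Ifi27l2a was higher there, at 0.44 (0.37 to 0.51), with populations from 1844 to 2920 CPM against 1214 to 2128 CPM. Of the 670 SLE123 cells in this class 286 carried hashtag C0303, where Ngp stood at 946.5 CPM, against 0 to 5.09 CPM in the control populations. What these transcripts contribute was not tested. In C57_AngII the summed level was 4542 against 5455 CPM, at −0.26 (−0.32 to −0.21), and it was 7024 CPM in hashtag C0301 and 2645 to 3973 CPM in the other 5. Without C0301 the ratio was −0.56.

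**Figure D5:**
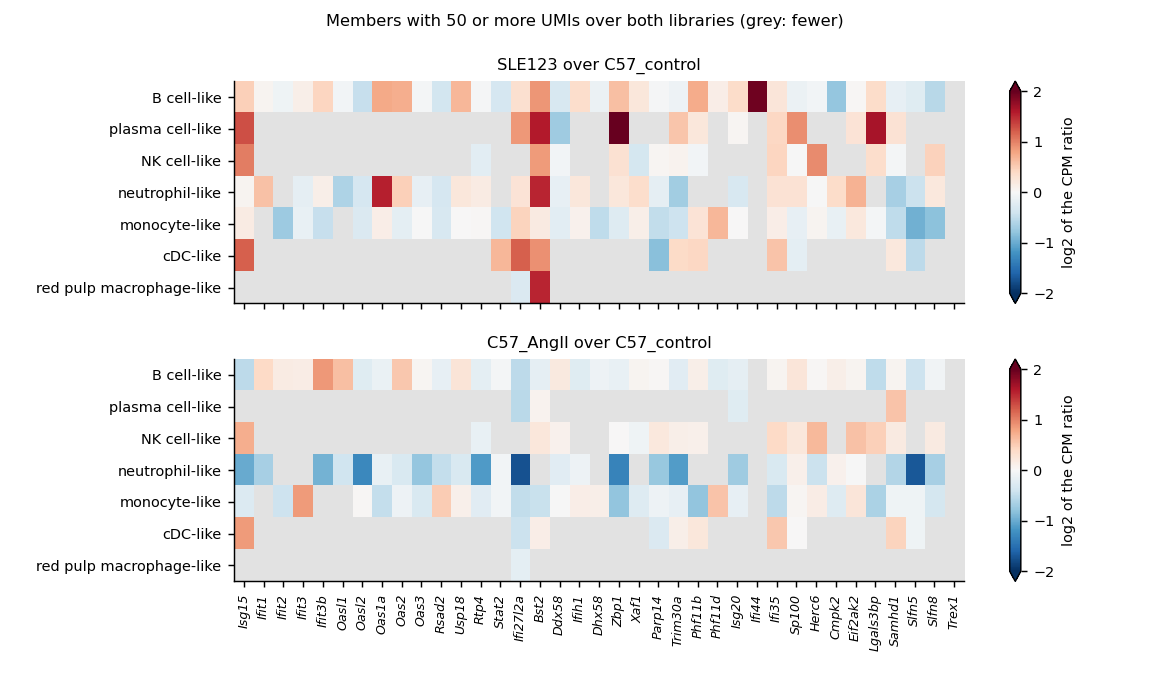
Log2 ratio of CPM (color, cut at −2 and 2) of each gene (columns) in 7 cell classes (rows), SLE123 over C57_control above and C57_AngII over C57_control below. Grey cells held under 50 UMIs. Bst2 is higher in SLE123 in each of the 7 classes, Slfn5 is lower in the 4 classes where it was compared, and the neutrophil-like row of C57_AngII is mostly below 0.

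The Bst2 ratio in SLE123, chosen for display after its values were seen, was above 0 in B cell-like (0.88), plasma cell-like (1.59), NK cell-like (0.85), neutrophil-like (1.53), monocyte-like (0.18, −0.01 to 0.38), cDC-like (0.91) and red pulp macrophage-like cells (1.52), with monocyte-like cells the only one of these whose interval held 0. In pDC-like cells it was −0.06. In C57_AngII the Bst2 ratio was −0.18 in B cell-like, 0.22 (−0.35 to 0.80) in NK cell-like, 0.13 (−0.24 to 0.50) in cDC-like and −0.44 (−0.69 to −0.19) in monocyte-like cells.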

How the data were processed

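Splenocytes were sequenced with the 10x Genomics 5′ assay in 3 libraries. The deposited values are UMI counts per gene and cell barcode. The authors produced them using Cell Ranger, version 6.0.0 by the file headers, on mm10 per the submitters' processing notes, with antibody counts of 6 hashtags in the same tables. No value was normalized before deposit. Gene UMIs totalled 44146350 to 63516694 per library.

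Cells with 200 to 3500 genes and at most 15% mitochondrial UMIs were kept. The study's methods word the limits of 200 and 3500 as RNA counts, and an alternative read them as UMIs. Hashtags were called with an Otsu threshold on log counts, and barcodes with several were removed as doublets. Classes needed at least 3 markers of a list (4 for plasma cells), limits set after the data had been seen. UMIs were summed per class and divided by the total. Exact conditional intervals (95%) cover counting error only, and a count of 0 was read as allowing 3 counts. All members were named in B cell-like cells, and in other classes those past 2-fold, with the pathway list. Other genes were added after their values were seen. The members and lists were chosen with earlier results of these data known. The intervals were tested on simulated counts that held counting error only. Variation between cells, hashtags or mice was not simulated. Alternatives were other cell limits, gates, scalings (edgeR 4.0.16 TMM, DESeq2 1.42.0), UMI minimums, thinning to 1000 UMIs and leaving out hashtags. Python 3.11.15, SciPy 1.17.1 and R 4.3.3 were used. Positions and transcripts came from GRCm38, promoters from RefSeq. A gene of the pathway list is not reported here.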

Additional observations from a re-analysis of the deposited data

Results flagged for a closer look

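Hashtag populations that stood apart from the other 5 of their library were looked for in 114 groups, and 14 were found, where chance gives about 1 in 20 for separate groups. The groups were not independent, as the summed level contains the single genes and many genes share the same cells. The 14 can therefore not be weighed against that rate. In C57_AngII 6 of the 14 were hashtag C0301. Its summed level was 2253 CPM in NK cell-like cells (others 1381 to 1608) and 7024 CPM in monocyte-like cells (others 2645 to 3973). In B cell-like cells it had 31.25 CPM of Oasl1 (others 16.9 to 22.3), 6.075 CPM of Rsad2 (others 0.571 to 2.48), 572.7 CPM of Ifi27l2a (others 372.9 to 447.6) and 84.7 CPM of Bst2 (others 54.3 to 64.3).

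In B cell-like cells of C57_control, hashtag C0306 had a summed level of 2497 CPM (others 1843 to 2087), 846.6 CPM of Ifi27l2a (others 497.8 to 610.0) and 84.8 CPM of Bst2 (others 62.5 to 70.6). In SLE123, C0303 had 1179 CPM of Ifi27l2a (others 576.1 to 786.8), C0305 had 11.5 CPM of Cmpk2 (others 5.18 to 6.67) and C0302 had 31.8 CPM of Slfn8 (others 42.4 to 48.3). Hashtag C0305 of SLE123 also had a summed level of 6486 CPM in monocyte-like cells (others 5171 to 5654). Hashtag C0303 of C57_AngII had 49.7 CPM of Slfn8 in B cell-like cells (others 60.4 to 66.2).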

How the results depend on the processing

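No paired analysis was possible because each group was 1 library. In B cell-like cells the summed log2 ratio of SLE123 (0.13) kept its sign and was 0.16 with the cell limits read as UMIs, 0.17 with TMM and 0.17 with DESeq2 scaling, 0.16 with thinned cells, 0.060 against control cells with Xist and 0.036 without Ifi27l2a, an alternative chosen after seeing the data. Leaving out 1 hashtag gave 0.049 (without C0303 of SLE123) to 0.18 (without C0306 of C57_control). For C57_AngII (−0.10) the values were −0.081 with the limits read as UMIs, −0.15 with TMM, −0.17 with DESeq2, 0.010 against control cells with Y-linked UMIs and 0.046 without Ifi27l2a, and leaving out 1 hashtag gave −0.14 (without C0301 of C57_AngII) to −0.043 (without C0306 of C57_control). Genes past 2-fold numbered 1 in SLE123, 0 with a stricter gate, 2 with thinned cells and 0 to 1 without 1 hashtag. In C57_AngII they numbered 0, 2 against the control cells with Y-linked UMIs, 1 with a minimum of 10 UMIs, 1 with none and 0 to 1 without 1 hashtag. The causes were not tested.

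In SLE123, the other classes gave the following summed log2 ratios. Plasma cell-like cells (0.66) gave 1.44 with limits read as UMIs, 0.29 with the stricter gate and 0.98 against control cells with Xist. Neutrophil-like cells (0.00) gave 0.22, 0.17 and 1.56 for the same settings, 0.10 with TMM, 0.078 with DESeq2 and −0.10 without Ifi27l2a. The 1.56 rested on 25 control cells with a median of 3045 UMIs, against 1131 in the other control cells. The control populations with Xist, C0304 to C0306, stood at 2782, 3742 and 6249 CPM, against 2788 CPM in SLE123. Monocyte-like cells (0.03) gave 0.13 with limits read as UMIs, −0.024 with several hashtags kept, −0.014 with either scaling, −0.033 thinned, −0.24 against Xist and −0.22 without Ifi27l2a. The cDC-like cells (0.54) gave 0.069 with limits read as UMIs and 0.40 without Ifi27l2a, and red pulp macrophage-like cells (0.16) gave −0.21 against Xist. Without 1 hashtag the lowest and highest ratios were 0.58 and 0.79 in plasma cell-like, 0.19 and 0.27 in NK cell-like, −0.38 and 0.25 in neutrophil-like, −0.048 and 0.23 in monocyte-like, 0.31 and 0.62 in cDC-like, and 0.066 and 0.44 in red pulp macrophage-like cells.

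In C57_AngII, plasma cell-like cells (−0.03) gave 0.56 with limits read as UMIs, −0.28 with several hashtags kept and −0.61 with the stricter gate. Neutrophil-like cells (−0.87) gave −0.35, −0.74 with the stricter gate, −0.80 with TMM, −0.46 thinned, 1.32 against control cells with Y-linked UMIs and −0.67 without Ifi27l2a. Against those 29 control cells Isg15 (2.16), Oasl2 (1.36), Rtp4 (2.41), Ifi27l2a (1.499) and Trim30a (0.81) turned positive, in a comparison added after seeing the data. Monocyte-like cells (−0.26) gave −0.48 with limits read as UMIs, −0.33 thinned, 0.21 against Y-linked UMIs and −0.16 without Ifi27l2a, and cDC-like cells (0.24) gave −1.16 with limits read as UMIs. Without 1 hashtag plasma cell-like cells gave −0.13 to 0.099, NK cell-like cells 0.081 to 0.27 and neutrophil-like cells −1.25 to −0.60. Monocyte-like cells gave −0.56 (without C0301 of C57_AngII) to −0.070, cDC-like cells 0.090 to 0.32 and red pulp macrophage-like cells −0.25 to 0.21. Few cells limit the classes other than B cell-like.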

Other observations

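In B cell-like cells Iigp1, a GTPase induced mainly by interferon gamma, stood at 3.03 CPM in C57_control, 1.96 CPM in SLE123 and 0.028 CPM in C57_AngII, where it rested on 1 UMI. The log2 ratio of C57_AngII was −6.76 (−12.1 to −4.24).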
